A study of Homo sapiens with 14 samples.

Results

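The glucocorticoid receptor (NR3C1), the related mineralocorticoid receptor (NR3C2) and 6 genes commonly used as readouts of glucocorticoid action (SGK1, TSC22D3, PER1, ZBTB16, KLF9 and PDK4) were followed across prostate cancer cell lines in which the pioneer factor FoxA1 was reduced or, by label, raised. These 8 genes were taken by symbol, with all 20 of their probes on the array, from 20046 genes with a named probe. The glucocorticoid receptor waits in the cytoplasm with chaperones, enters the nucleus when it binds cortisol, and acts on DNA as a dimer at a palindromic element made of paired hexamers. Other steroid receptors read the same element, and several glucocorticoid-induced genes are therefore also induced by androgen. In prostate tumours the receptor is known for maintaining part of the androgen-driven programme when androgen signalling is blocked.

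Expression was measured on 14 single-colour Illumina bead arrays. LNCaP, an androgen-sensitive prostate cancer line, carried a FoxA1 shRNA (shFoxA1, 4 arrays) or a control shRNA (shCtrl, 4 arrays). In each of these arms 2 arrays are numbered replicates with no medium in the title, 1 array has R1881 (a synthetic androgen) in its title and 1 has hormone-deprived. The protocol, which has the same wording for all 8, describes charcoal-stripped medium for 3 days and then 1 nM R1881 for 24 hours, so what the numbered arrays received is not settled. The remaining groups had 1 array each. They were LNCaP with FoxA1 siRNA and with control siRNA, 22RV1 (a line from a castration-relapsed xenograft) with FoxA1 shRNA and with control shRNA, and PC-3M (a metastatic line) labelled FoxA1, described as stable overexpression, and its control. Neither the shRNA sequence nor the number of clones is given in the labels, and the labels do not tell whether the replicates were separate cultures. The p-values here therefore reflect array-to-array spread, which may be technical. Where arm and medium label were fitted together, that spread also holds any change of the arm difference between media. In RNA from a whole culture, fewer cells expressing a gene and less RNA per cell cannot be told apart.

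Mean intensity lay between 157 and 285 on the LNCaP shRNA arrays, between 436 and 447 on the siRNA arrays, between 235 and 325 on the 22RV1 arrays and between 208 and 222 on the PC-3M arrays. FOXA1 itself averaged 10.86 ± 0.42 on the shFoxA1 arrays and 11.88 ± 0.19 on the shCtrl arrays (log2 intensity, SD, n = 4 each), a log2 difference of -1.02 (limma, SE 0.15, adjusted p = 0.0121), and its difference was -0.81 with siRNA and -1.11 in 22RV1. On the PC-3M array labelled FoxA1 it was 8.89, against 10.40 on the control array, which goes against the label. Whether this probe reads the introduced transcript, and whether the pair's labels are swapped, was not tested. That array is called the array labelled FoxA1 below; if the labels were swapped, each PC-3M difference given here would change sign. All 7 luminal prostate markers with a probe were detected on every LNCaP and 22RV1 array except the hormone-deprived shCtrl array, where 6 were, and 3 of 7 were detected on both PC-3M arrays, where all 4 mesenchymal markers were. Of 12 fibroblast, leukocyte and endothelial markers, 0 to 5 were detected on each of the 14 arrays.

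The start-site windows of the genes were read from RefSeq on GRCh38.p14, each running 250 bases upstream to 50 bases downstream of an annotated start. There were 21 such windows for 7 of the genes. The full palindromic receptor element, AGAACA and then TGTTCT with 3 bases of any kind between them, was found in 0 of the 21 and in 0.00285% of all 35116 windows in the table. The single hexamer, TGTTCT or its reverse complement AGAACA, which is part of the full element, was found in 2 of the 21 windows, against 14.8% of all windows. The forkhead core TGTTTAC, the sequence type that FoxA1 recognises, was searched on both strands and found in 2 of the 21, against 3.42% of all windows, without overlap with the hexamer matches. The windows below are shown because SGK1 and PDK4 gave the largest differences described here and hold the receptor hexamer, and because TSC22D3 had differences of the opposite sign in LNCaP and holds a forkhead core; capitals mark the match, and all are on the minus strand, at chr6:134177812-134178111 (match at bases 256 to 261 of the window), chr7:95596467-95596766 (bases 5 to 10) and chrX:107717013-107717312 (bases 104 to 110). The other forkhead match lay in an NR3C1 window, at chr5:143403234-143403533. SGK1 had 3 windows, TSC22D3 4 and PDK4 1, and of each gene only the window shown held a match. Because the windows were picked by these differences, no link between match and response is drawn from them. A match of letters is a description and shows no binding.
SGK1: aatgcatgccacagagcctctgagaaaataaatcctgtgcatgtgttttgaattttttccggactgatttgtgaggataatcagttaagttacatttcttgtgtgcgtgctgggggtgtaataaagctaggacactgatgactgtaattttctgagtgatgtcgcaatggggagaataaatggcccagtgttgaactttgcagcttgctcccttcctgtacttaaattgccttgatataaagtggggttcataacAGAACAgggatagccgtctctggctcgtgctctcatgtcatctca
PDK4: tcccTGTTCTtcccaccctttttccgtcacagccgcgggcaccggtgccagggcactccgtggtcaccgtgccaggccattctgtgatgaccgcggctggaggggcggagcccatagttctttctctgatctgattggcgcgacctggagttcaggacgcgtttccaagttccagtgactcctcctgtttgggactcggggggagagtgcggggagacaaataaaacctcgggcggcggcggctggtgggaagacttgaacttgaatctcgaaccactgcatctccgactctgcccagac
TSC22D3: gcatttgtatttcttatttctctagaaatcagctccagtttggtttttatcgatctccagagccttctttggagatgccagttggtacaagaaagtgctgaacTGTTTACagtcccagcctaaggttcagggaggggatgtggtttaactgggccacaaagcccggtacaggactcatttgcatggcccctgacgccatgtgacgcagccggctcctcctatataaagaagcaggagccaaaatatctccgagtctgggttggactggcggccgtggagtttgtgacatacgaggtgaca

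The glucocorticoid receptor transcript was at or near background on the LNCaP and 22RV1 arrays. On the siRNA, 22RV1 and PC-3M arrays 1 of its 3 probes counted as detected. In LNCaP with shRNA, all 3 NR3C1 probes were undetected on all 8 arrays, with values between 4.43 and 4.80 and between the 4.26th and the 38.1st percentile of the probes of their array. In the siRNA and 22RV1 table, where no detection p-value could be used and a probe counts as detected when it stands clear of the background peak of its array, 1 of the 3 probes (ILMN_1668525) did so. That probe had 4.81 with FoxA1 siRNA, against 5.05 with control siRNA in LNCaP, and 4.90 with FoxA1 shRNA, against 4.63 with control shRNA in 22RV1. It stood between the 55.3rd and the 65.1st percentile of these arrays. There 46.8 to 53.2% of all probes counted as detected, against 34.3 to 42.6% on the LNCaP shRNA arrays. Detection is therefore not alike between the tables. In PC-3M a different probe, ILMN_2389347, was the 1 detected, with 5.68 on the array labelled FoxA1 and 5.83 on the control array, at the 71.1st and the 72.5th percentile of its arrays. The single-array pairs have no spread of their own, so no order of the lines can be set against an error, and the tables were normalized separately.

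**Figure D1:**
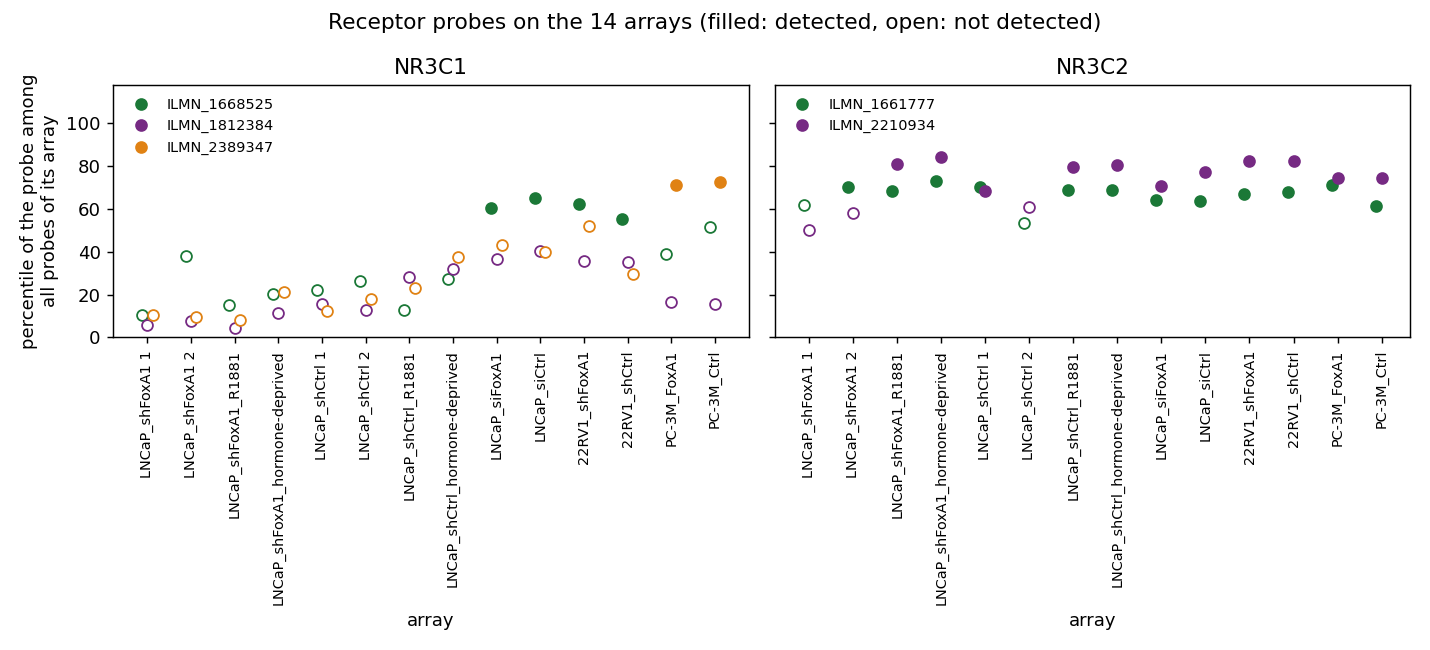
Position of the 3 NR3C1 probes and the 2 NR3C2 probes on each of the 14 arrays, as the percentile among all probes of that array (vertical axis); filled points were detected and open points were not. NR3C1 probes are open on all 8 LNCaP shRNA arrays, and a different probe is filled in PC-3M than in the siRNA and 22RV1 arrays.

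The mineralocorticoid receptor NR3C2, which binds cortisol as well as aldosterone, was detected in each of the 3 lines and did not pass the test for FoxA1 knockdown. Its brighter probe (ILMN_2210934) had 4.95 and 5.09 on the numbered shFoxA1 arrays, 6.84 on the R1881 array and 7.40 on the hormone-deprived array, against 5.48 and 5.16 on the numbered shCtrl arrays, 6.67 on the R1881 array and 6.82 on the hormone-deprived array. The 2 arms overlapped throughout, and the log2 difference was 0.03 (limma, SE 0.17, adjusted p = 0.936). The 4 numbered arrays (4.95 to 5.48, 1 detected) lay below the 4 R1881 and hormone-deprived arrays (6.67 to 7.40, all detected). That split is common on these arrays, since 22.1% of the 22177 probes tested did not overlap between the same sets. The labels name no separate run for either set, and what lies behind the split was not tested. The dimmer probe (ILMN_1661777) did not separate these sets, and its knockdown difference was 0.13 (adjusted p = 0.691). In the siRNA pair ILMN_2210934 had 5.54 with FoxA1 siRNA and 6.39 with control siRNA, and in 22RV1 it had 7.23 with FoxA1 shRNA and 7.22 with control shRNA.

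Among the target genes, SGK1 and ZBTB16 rose with FoxA1 knockdown in LNCaP. Of the 8 genes, 5 had a probe detected on at least 2 of the 8 LNCaP shRNA arrays and were tested, and 2 of these 5 passed, both higher. Over all 11892 genes tested, 7.52% passed in either direction, 3.99% higher and 3.53% lower. NR3C1, PER1 and PDK4 were not tested because they were not detected. Of the 11 probes tested for the 5 genes, 5 passed, against 6.17% of all probes. They were 3 probes of SGK1 and 2 of ZBTB16, so they repeat the count of 2 genes. In the numbered replicates alone, 1 of the 5 genes passed, SGK1, against 2.45% of all genes. Of the marker genes, 2 of 7 luminal ones rose with knockdown (KLK3 by 1.30, adjusted p = 0.0181, and KLK2 by 0.89, adjusted p = 0.0463), and the summed intensity of the luminal list was 3778 to 5948 on the shFoxA1 arrays and 2643 to 6174 on the shCtrl arrays. Of the 12 markers of other cell types, 5 were tested, of which 1 fell (VWF, by 0.97, adjusted p = 0.0111, named after its value was seen), with a summed intensity of 337 to 456 on the shFoxA1 arrays and 371 to 529 on the shCtrl arrays. Of the 4 mesenchymal markers 2 were tested and neither passed, and their summed intensity was higher in shFoxA1 cells in 4 of 4 pairs (270.4 to 639 on the shFoxA1 arrays, 226 to 348 on the shCtrl arrays). It was also higher with siRNA (305 with FoxA1 siRNA, 253 with control siRNA) and in 22RV1 (1699 with FoxA1 shRNA, 1208 with control shRNA). The part of these lists in the results was not tested.

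SGK1 encodes a serum- and glucocorticoid-regulated kinase that keeps sodium channels at the cell surface and phosphorylates many of the targets of AKT. Its probe ILMN_1702487 had 10.79 and 10.52 on the numbered shFoxA1 arrays, 9.71 on the R1881 array and 9.48 on the hormone-deprived array, against 7.38 and 8.76 on the numbered shCtrl arrays, 6.93 on the R1881 array and 6.40 on the hormone-deprived array. Every shFoxA1 array lay above every shCtrl array, which held for 11.2% of all tested genes in either direction. SGK1 averaged 10.13 ± 0.63 in shFoxA1 cells and 7.37 ± 1.01 in shCtrl cells (SD, n = 4 each), and the fitted log2 difference was 2.76, or 6.77-fold (limma, SE 0.27, adjusted p = 0.00295). The difference by pair was 3.41, 1.76, 2.78 and 3.08, the smallest in the second numbered pair, whose shCtrl array had the highest SGK1 level of its arm. The probes ILMN_3229324 and ILMN_3305938 gave 2.64 (adjusted p = 0.00236) and 2.55 (adjusted p = 0.00306), whereas the remaining probe, ILMN_1853711, was detected on 0 of the 14 arrays. Without the medium term the difference was the same and the adjusted p was 0.0524.

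SGK1 was also higher with the other knockdown reagent and in the other line. In LNCaP it had 10.14 with FoxA1 siRNA and 7.40 with control siRNA, a log2 difference of 2.74. In 22RV1, where its level was low, it had 6.38 with FoxA1 shRNA and 5.10 with control shRNA, a difference of 1.28 that the other detected probes gave as 0.77 and 0.76. As deposited, before background correction and scaling, these probes were nearly level. They had 128.5, 102.8 and 108.8 with FoxA1 shRNA and 112.3, 100.8 and 108 with control shRNA. The mean intensity of these arrays was 235 and 325. In PC-3M SGK1 had 8.42 on the array labelled FoxA1 and 7.87 on the control array, a difference of 0.55, or -0.55 with the labels turned. The 22RV1 control array stood 2.30 below the LNCaP control siRNA array, with which it shares a table. These pairs have 1 array per group and no test.

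ZBTB16 encodes a zinc finger transcriptional repressor (PLZF) that is induced by glucocorticoid and by androgen. Its probe ILMN_2305407 had 9.27 and 8.88 on the numbered shFoxA1 arrays, 8.55 on the R1881 array and 8.01 on the hormone-deprived array, against 8.39 and 8.44 on the numbered shCtrl arrays, 8.01 on the R1881 array and 7.04 on the hormone-deprived array. The shFoxA1 array was the higher of its pair in 4 of 4 pairs, by 0.44 to 0.98, although the arms overlapped. The fitted difference was 0.71, or 1.63-fold (limma, SE 0.14, adjusted p = 0.0244). A second probe, ILMN_2402817, gave 0.80 (SE 0.17, adjusted p = 0.0320), and the dimmest, ILMN_1750496, gave 0.09 (SE 0.16, adjusted p = 0.779). The ZBTB16 call was close to the threshold and was lost under 13 of 20 alternative settings, where the adjusted p reached 0.406 with no medium term. In 22RV1 it had 10.05 with FoxA1 shRNA and 8.82 with control shRNA, a difference of 1.23, from deposited intensities of 633 and 533.3. In LNCaP it had 8.83 with FoxA1 siRNA and 8.38 with control siRNA, a difference of 0.45. All 3 ZBTB16 probes were undetected on both PC-3M arrays.

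**Figure D2:**
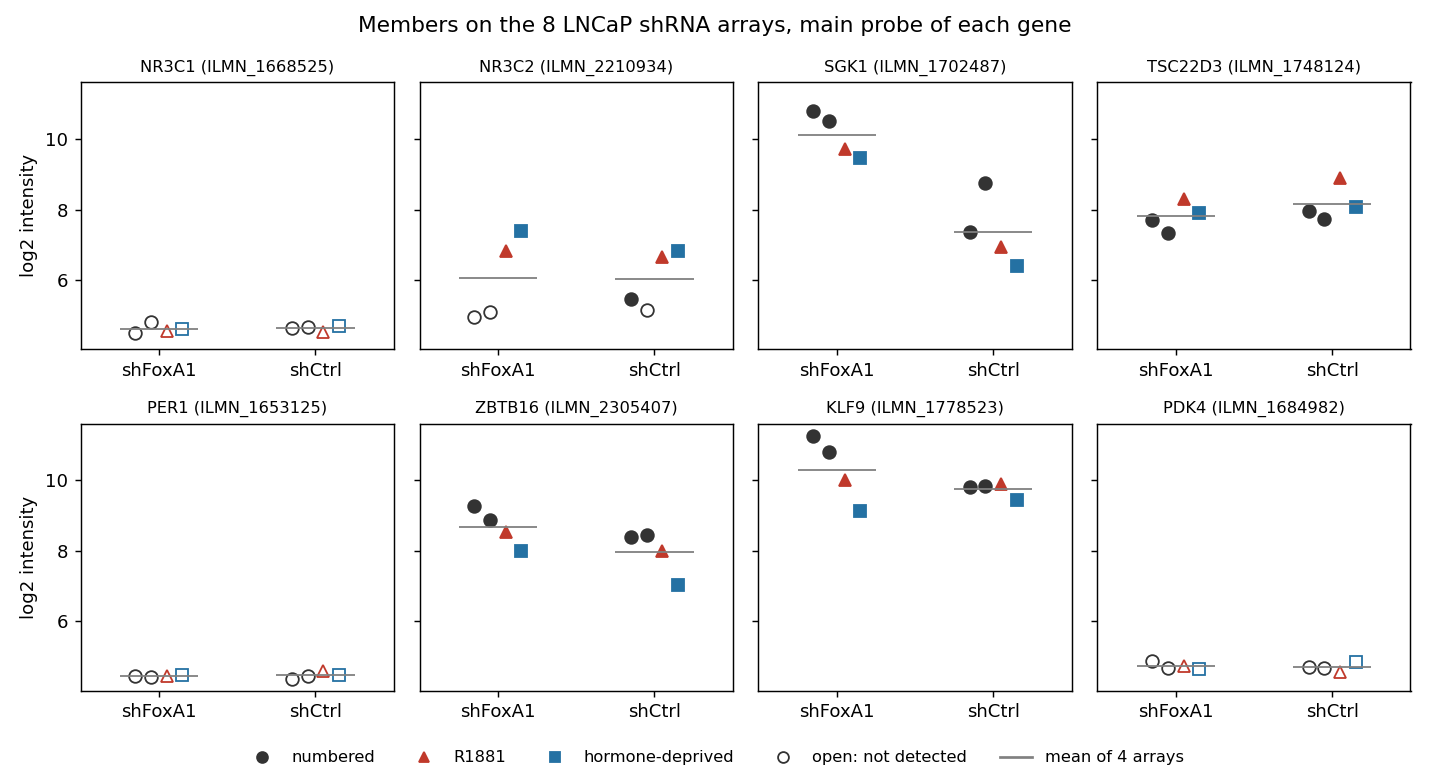
Log2 intensity of the brightest probe of each of the 8 genes on the LNCaP shRNA arrays, shFoxA1 left of shCtrl; circles are the numbered arrays, triangles R1881, squares hormone-deprived, open symbols undetected, and lines the mean of 4 arrays. The SGK1 arms do not overlap (9.48 to 10.79 against 6.40 to 8.76), and NR3C1, PER1 and PDK4 are undetected throughout.

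KLF9 encodes a Krüppel-like repressor that glucocorticoids and thyroid hormone induce. It had 11.27 and 10.81 on the numbered shFoxA1 arrays, 10.00 on the R1881 array and 9.13 on the hormone-deprived array, against 9.81 and 9.84 on the numbered shCtrl arrays, 9.91 on the R1881 array and 9.45 on the hormone-deprived array. The shCtrl arrays lay within a narrow range, and the shFoxA1 array was clearly the higher in the numbered pairs, about level in the R1881 pair and the lower in the hormone-deprived pair. The pairs differed by 1.46, 0.97, 0.09 and -0.31, and the fitted difference of 0.55 did not pass (limma, SE 0.26, adjusted p = 0.247). In the numbered replicates alone it was 1.21 (limma, SE 0.21, adjusted p = 0.0523). The knockdown difference of the numbered pairs minus that of the R1881 and hormone-deprived pairs was 1.32 (limma, SE 0.30, adjusted p = 0.769), a contrast added after the values were seen. KLF9 was 1.22 higher in the 22RV1 knockdown (10.35 with FoxA1 shRNA, 9.13 with control shRNA), from deposited intensities of 760 and 632.7. It was 0.69 higher in the siRNA knockdown (9.79 with FoxA1 siRNA, 9.10 with control siRNA). In PC-3M, where the label is overexpression, it had 8.95 on the array labelled FoxA1 and 7.93 on the control array, a difference of 1.02, or -1.02 with the labels turned.

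TSC22D3 encodes the leucine zipper protein GILZ, which mediates part of the anti-inflammatory action of glucocorticoids. Its values ran lower rather than higher with knockdown in LNCaP. Its probe ILMN_1748124 had 7.71 and 7.35 on the numbered shFoxA1 arrays, 8.29 on the R1881 array and 7.91 on the hormone-deprived array, against 7.97 and 7.74 on the numbered shCtrl arrays, 8.89 on the R1881 array and 8.08 on the hormone-deprived array. It was lower on the shFoxA1 array in 4 of 4 pairs, yet the difference of -0.36 did not pass (limma, SE 0.14, adjusted p = 0.169), and ILMN_2376403 gave -0.27 (adjusted p = 0.257). The difference was -0.23 with siRNA, -0.59 in 22RV1 (8.22 with FoxA1 shRNA, 8.82 with control shRNA) and 0.35 in PC-3M (6.21 on the array labelled FoxA1, 5.86 on the control array), or -0.35 with the labels turned. Its other 3 probes were detected on 0 to 3 of the 14 arrays.

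PDK4 encodes a kinase that shuts off pyruvate dehydrogenase and so spares glucose, and fasting and glucocorticoids induce it. It was undetected on all 8 LNCaP shRNA arrays and both siRNA arrays. In 22RV1 it had 10.81 with FoxA1 shRNA and 7.76 with control shRNA, a log2 difference of 3.05, or 8.27-fold (2.14 with median scaling), which is larger than that of any other of these genes in the pair. The deposited intensities behind it were 1014 with FoxA1 shRNA and 313 with control shRNA. The 22RV1 control array stood at least 9.74-fold above the detection limit of the LNCaP control siRNA array. In PC-3M it had 5.22 on the array labelled FoxA1 and was undetected on the control array (4.85), which gives a ratio of at least 1.20. PER1, a core clock repressor with an acute response to glucocorticoid, was undetected on the LNCaP shRNA and PC-3M arrays. It had 4.87 with FoxA1 siRNA and was undetected with control siRNA (4.30), a ratio of at least 1.32, and it had 5.01 on both 22RV1 arrays.

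Counting genes at least 2-fold apart in each pair and detected on the brighter array, 22RV1 held the most of this group. There 4 of 8 detected genes were higher (KLF9, PDK4, SGK1 and ZBTB16), where 3.12% of all detected genes were 2-fold apart and 1.73% were higher. SGK1 dropped below the 2-fold line there without background correction (0.997) and with an offset of 50 (0.78). With median scaling, which moved the median of all detected genes in that pair to -0.40, PDK4 was higher (2.14) and TSC22D3 was lower (-1.16), while KLF9 (0.47), ZBTB16 (0.46) and SGK1 (0.83) were not 2-fold apart. SGK1 alone passed the 2-fold line in the siRNA pair (1 of 7, background 3.34% apart and 2.17% higher), with NR3C2 also 2-fold lower in the deposited matrix (-1.17), and KLF9 alone in PC-3M (1 of 6, background 2.48% apart and 1.05% higher), where it fell below the line without background correction, with an offset of 50 or with median scaling. In the LNCaP shRNA pairs, KLF9 and SGK1 passed in the first numbered pair (2 of 5, background 14.9% apart and 8.27% higher). SGK1 alone passed in the second (1 of 4, background 5.93% apart and 3.52% higher), in the R1881 pair (1 of 5, background 3.74% apart and 1.87% higher) and in the hormone-deprived pair (1 of 5, background 1.80% apart and 1.14% higher). At this setting 0 genes of the group were 2-fold lower in these 7 pairs. Between the control arrays of 22RV1 and LNCaP siRNA, PDK4 was higher and SGK1 lower, where 29.8% of all detected genes were apart and 16.6% were higher.

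**Figure D3:**
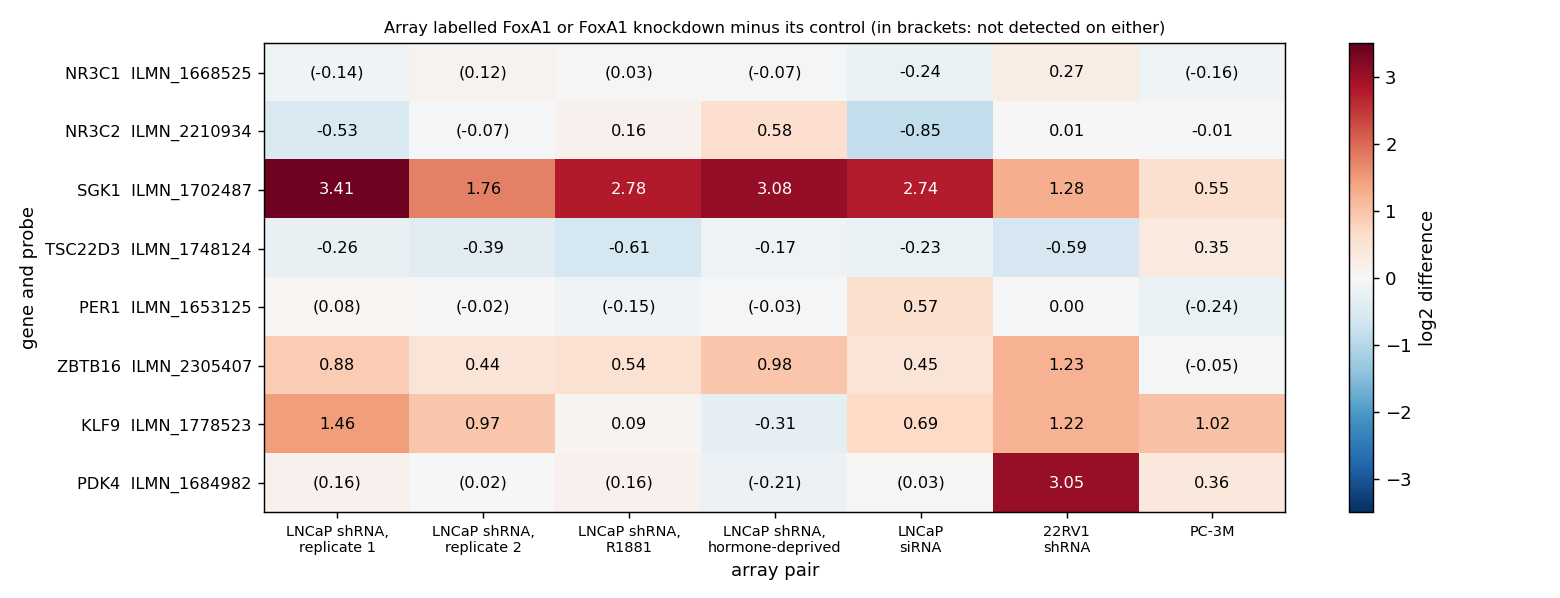
Log2 difference of the shFoxA1, siFoxA1 or FoxA1-labelled array minus its control in each of 7 array pairs (columns) for the 8 genes (rows). Brackets mark probes undetected on both arrays. Each row shows, in all columns, the probe that is brightest on the LNCaP shRNA arrays. For NR3C1 in PC-3M this is the undetected ILMN_1668525 and not ILMN_2389347, which was detected on both PC-3M arrays. SGK1 is positive in all 6 knockdown pairs, with values of 1.28 to 3.41, and PDK4 stands out in 22RV1 at 3.05.

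R1881 was set against hormone-deprived medium in both arms of LNCaP, to ask how the glucocorticoid readouts respond to androgen. The column headings of the hormone-deprived arrays form another series than those of the R1881 and numbered arrays. Medium and a possible separate run therefore cannot be told apart in the R1881 differences. The exposure showed in known androgen targets. FKBP5, a co-chaperone of steroid receptors, rose by 2.49 (limma, SE 0.23, adjusted p = 0.00789), with 2.79 in shFoxA1 cells and 2.19 in shCtrl cells, and TMPRSS2, a membrane protease, rose by 2.04 (adjusted p = 0.0459). KLK3 and KLK2, secreted kallikreins, were 1.57 and 1.46 higher and did not pass (adjusted p = 0.0883 and 0.0978). FKBP5 had 11.50 and 11.50 on the numbered shFoxA1 arrays, 11.26 with R1881 and 8.47 hormone-deprived. In shCtrl cells it had 10.33 and 10.70 on the numbered arrays, 10.39 with R1881 and 8.19 hormone-deprived. TMPRSS2 had, in the same order, 11.27, 11.19, 11.64 and 10.01 on the shFoxA1 arrays. On the shCtrl arrays it had 10.82, 11.64, 11.31 and 8.86. What medium the numbered arrays received was not tested. Over all genes 0.429% passed, 0.16% higher and 0.269% lower. Of the 5 genes of the group tested, 0 passed by limma, and 2 (TSC22D3 and ZBTB16) had an unadjusted p below 0.05, against 11.6% of all genes.

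ZBTB16 had 8.55 on the R1881 array and 8.01 on the hormone-deprived array in shFoxA1 cells, and 8.01 on the R1881 array and 7.04 on the hormone-deprived array in shCtrl cells. Its fitted R1881 difference was 0.75 (limma, SE 0.20, adjusted p = 0.172). TSC22D3 was 0.38 higher with R1881 in shFoxA1 cells and 0.81 higher in shCtrl cells, and the fit gave 0.59 for ILMN_1748124 (SE 0.20, adjusted p = 0.301) and 0.62 for ILMN_2376403 (SE 0.18, adjusted p = 0.227). KLF9 was 0.87 higher in shFoxA1 cells and 0.46 higher in shCtrl cells (fit 0.66, adjusted p = 0.602). SGK1 was 0.23 higher in shFoxA1 cells and 0.53 higher in shCtrl cells (fit 0.38, adjusted p = 0.805), which is small beside its knockdown difference. NR3C2 was 0.56 lower in shFoxA1 cells and 0.14 lower in shCtrl cells (fit -0.35, adjusted p = 0.699). No gene of the group was 2-fold apart by R1881 in either arm, where 2.98% of all detected genes were apart in shFoxA1 cells (1.24% higher) and 2.77% in shCtrl cells (1.44% higher). The test of whether the R1881 response differed between shFoxA1 and shCtrl called 0 genes of the group and 0 of all genes by limma. In it 190 of all 11892 genes (1.6%) and 0 genes of the group had an unadjusted p below 0.05. For SGK1 the difference in response was -0.30 (SE 0.87), so a large difference in either direction was not detectable with 1 array per medium and arm.

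**Figure D4:**
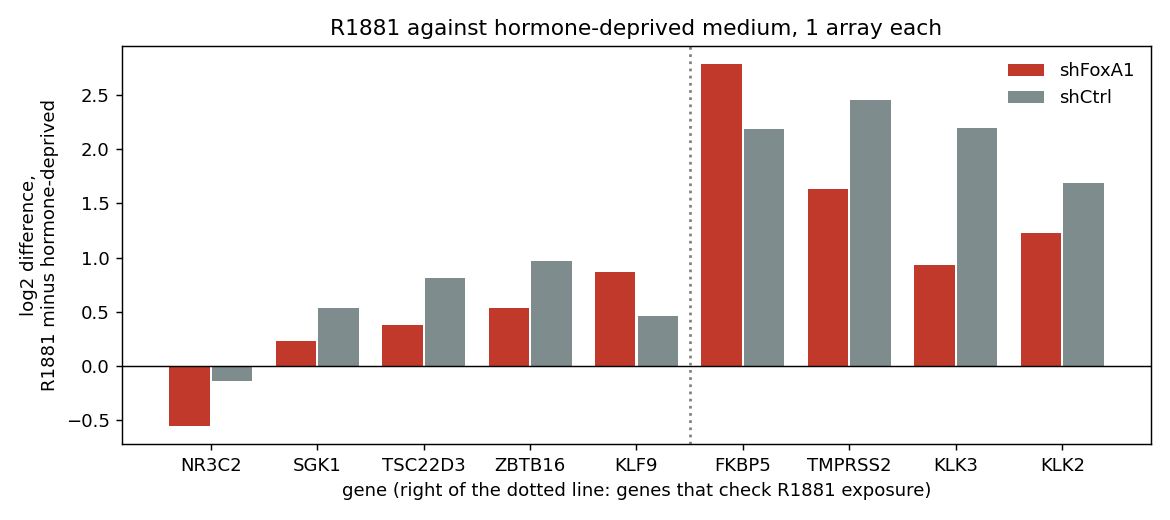
Log2 difference of the R1881 array minus the hormone-deprived array in shFoxA1 (left bar) and shCtrl (right bar) LNCaP cells, 1 array each and so without error bars, for the 5 tested genes (left of the dotted line) and 4 androgen targets (right). The 5 genes stay between -0.56 and 0.97, whereas FKBP5 reaches 2.79 in shFoxA1 cells.

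The rest of the glucocorticoid pathway was read from lists. Of 44 other genes known to be induced by glucocorticoids in various tissues, 36 were tested. Of these, 8 rose with FoxA1 knockdown and 1 fell, where 3.99% of all genes rose and 3.53% fell. The 36 had a median log2 difference of 0.51, against -0.01 over all genes, and 30 of 36 were positive. This list and the one that follows were chosen with earlier results of these data known. Their values are a description and not an independent test. MAOA, which degrades monoamines, rose by 0.86 (limma, SE 0.14, adjusted p = 0.0157), with no overlap between the arms. ANXA1, an anti-inflammatory phospholipid-binding protein, was detected on 4 of 4 shFoxA1 arrays and 0 of 4 shCtrl arrays, at least 2.84-fold higher (adjusted p = 0.0181). The growth-restraining transcription factors FOXO1 and FOXO3 rose by 0.71 (adjusted p = 0.0228) and 1.08 (adjusted p = 0.0319), and SNAI2, a repressor of epithelial genes, rose by 0.90 (adjusted p = 0.0248). The receptor tyrosine kinase MERTK (1.07, adjusted p = 0.0495) and SPSB1 (1.08, adjusted p = 0.0324) were the other genes of the list that rose besides FKBP5. The repressor BCL6, named after its value was seen, fell by 0.77 (adjusted p = 0.0448). The number called on this list was 0 to 11 over 20 alternative settings, while the median stayed positive in all of them, between 0.18 and 0.83. It was 0 or 1 without any single one of shCtrl replicate 1, shCtrl replicate 2, shFoxA1 replicate 2 and the 2 R1881 arrays. Many of these genes are known to answer to other hormones and stresses as well.

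Of 25 receptor chaperones, coregulators and steroid-handling enzymes, 18 were tested. Of these, 1 rose and 0 fell with knockdown, against 3.99% and 3.53% of all genes. The median difference of the list was -0.05. The 1 gene that rose was FKBP5, which is on both lists and had a difference of 0.78 (limma, SE 0.16, adjusted p = 0.0280) in LNCaP. HSD11B2, which inactivates cortisol and is also on both lists, lay between 7.47 and 9.11 on the shFoxA1 arrays and between 6.50 and 7.14 on the shCtrl arrays and did not pass (1.15, adjusted p = 0.0616), and it was at least 2-fold higher with knockdown in the siRNA and 22RV1 pairs. The chaperones HSPA4 and FKBP4 had differences of -0.34 (adjusted p = 0.184) and -0.28 (adjusted p = 0.253). With R1881, FKBP5 was the 1 gene called on each list, where 0.429% of all genes passed. The lists' R1881 medians were 0.06 for the chaperones and coregulators and 0.17 for the induced genes. The coactivator NCOA1 had -0.98 (adjusted p = 0.0728) and ERRFI1, an inhibitor of the EGF receptor, had 1.47 (adjusted p = 0.0744) with R1881.

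The genes whose levels ran most like each tested gene over the 8 LNCaP shRNA arrays were found by Pearson correlation among 11891 genes. This is a description over arrays that share their normalization, their 2 arms and the split between numbered and other arrays. The most like genes were NDRG3 (r = 0.980) and DNER (r = 0.976) for SGK1, LINC01808 (r = 0.973) and IFNAR1 (r = 0.970) for ZBTB16, and ABCA2 (r = 0.979) and ABCB9 (r = 0.976) for KLF9. For TSC22D3 they were RAD21 (r = 0.976) and C2orf76 (r = 0.974), and for NR3C2 they were PRPF39 and BOLA2B (r = 0.985 each). For NR3C1, over percentiles on all 14 arrays, they were MAF1 and BUD23 (r = 0.935 each) and SCNM1 (r = 0.926), with a probe that was undetected on 10 of those arrays. These arrays were normalized in separate sets. The probe lay at the 10.3rd to 38.1st percentile on the LNCaP shRNA arrays and the 55.3rd to 65.1st on the siRNA and 22RV1 arrays. In PC-3M it lay at 38.9 and 51.5. How far r follows these sets was not tested.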

How the data were processed

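Total RNA of 14 cell line samples was hybridized to Illumina bead arrays at core facilities that differ between the LNCaP shRNA arrays and the rest, per the labels' protocols. Values came from GenomeStudio, version not given in the sources used here, per the submitters' processing notes. The deposited tables hold probe intensity, not normalized between arrays: background-subtracted for the 8 LNCaP shRNA and 2 PC-3M arrays, with a detection p-value per probe per the file headers, and raw for the 4 siRNA and 22RV1 arrays, whose columns headed as detection p held whole numbers and were set aside. The deposited matrix of linear intensity, which its sorted values show was quantile normalized in separate sets, served as an alternative.

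Each table was processed alone in R 4.3.3 with limma 3.58.1: normal-exponential background correction from the detection p (from the mode of the intensities where there was none), an offset of 16, quantile normalization and log2. A probe was detected at detection p below 0.05, or in the siRNA and 22RV1 table when clearly above that mode, a rule chosen after seeing the values that matched the detection p for 91.7 to 99.5% of probes on the 10 arrays with detection p. Of 47323 probes, 30113 had 1 gene symbol in the platform annotation, 8 had several and the rest had none; 0 symbols changed against RefSeq. A gene is represented by its brightest probe.

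The knockdown was fitted by limma with arm and medium label as terms over the 8 LNCaP shRNA arrays (two-sided, Benjamini-Hochberg over 22177 probes detected on at least 2 arrays, adjusted p below 0.05), which left 4 residual degrees of freedom. R1881 minus hormone-deprived came from the same fit. The difference in response and the numbered replicates alone came from a fit with 6 group means, with 2 residual degrees of freedom. Pairs of single arrays got no test. Deviations of same-numbered arrays correlated at -0.173, which gives no sign of pairing. The fit was also run on simulated data with independent noise and the same arm difference in each medium. That setting is simpler than these arrays, so nothing is drawn from it here. Named genes were all 8 genes, FOXA1, the androgen targets FKBP5, KLK3, KLK2 and TMPRSS2, up to 6 genes of each list by p in the knockdown fit and up to 4 by p for R1881, and the most like genes; others are said to be chosen later. The genes and lists were chosen with earlier results of these data known.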

Additional observations from a re-analysis of the deposited data

Results flagged for a closer look

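The TSC22D3 log2 difference was 0.35 in the PC-3M pair (array labelled FoxA1 minus control), whereas it was between -0.61 and -0.17 in all 4 LNCaP shRNA pairs (shFoxA1 minus shCtrl). By label the PC-3M pair is overexpression and the LNCaP pairs are knockdown, and with the doubted PC-3M labels turned the value is -0.35, so no direction between the lines is drawn from these signs. The difference was not tested, since PC-3M has 1 array per group.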

How the results depend on the processing

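SGK1 (ILMN_1702487) stayed higher with knockdown under all 20 alternatives run, at 2.50 to 3.05, and lost its call under 1 of them, without the medium term (2.76, adjusted p = 0.0524). The ZBTB16 call was lost under 13 of 20. The 894 genes called in the knockdown fit (474 higher, 420 lower) became 1493 with median scaling (250 higher, 1243 lower; the median of all genes moved to -0.14), 74 in the deposited matrix, 92 with no filter on dim probes, 560 with the replicate block, 38 with no medium term, 185 with 3 against 3 arrays, 291 with the numbered replicates alone and 59 to 843 when 1 array was left out. Fewest were called without the shFoxA1 R1881 array (59) and the shCtrl R1881 array (63), then without shFoxA1 replicate 2 (141), shCtrl replicate 2 (171) and shCtrl replicate 1 (221). Genes of the group called numbered 0 with no medium term and 1 with median scaling, the deposited matrix, no filter, 3 against 3 arrays or the numbered replicates alone, and 1 to 2 when 1 array was left out. The numbers do not mark a known pairing, and the replicate block left both calls in place.

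For R1881, the 51 genes called (19 higher, 32 lower) became 92 without background correction, 62 with median scaling (39 higher, 23 lower), 2 in the deposited matrix (0 higher, 2 lower), 0 by limma with no filter (1923 genes at unadjusted p below 0.05), 18 with the replicate block, 859 in the 4 R1881 and hormone-deprived arrays alone, where 2 genes of the group were called (ZBTB16 and KLF9), and 0 to 110 when 1 array was left out, with 0 without the shCtrl R1881 array (1029 at unadjusted p below 0.05). At least 2-fold apart were 2 genes of the group in the siRNA pair in the deposited matrix (SGK1 higher, NR3C2 lower), 2 in the 22RV1 pair with median scaling (PDK4 higher, TSC22D3 lower), and 0 in PC-3M without background correction, with an offset of 50 or with median scaling. None of the differences that changed sign passed the test. They were the knockdown difference of NR3C2 ILMN_2210934 (-0.142 with median scaling, -0.0583 in the deposited matrix, -0.147 with 3 against 3 arrays, -0.302 in the numbered replicates alone, -0.145 to 0.163 when 1 array was left out), of ZBTB16 ILMN_1750496 (-0.0344 with median scaling, -0.00474 to 0.193 when 1 array was left out) and of KLF9 (-0.11 in the R1881 and hormone-deprived arrays alone, added after seeing the data). In the R1881 contrast they were NR3C2 ILMN_2210934 (-0.710 to 0.013) and ZBTB16 ILMN_1750496 (-0.00561 to 0.386) when 1 array was left out. In the test of a different R1881 response they were ZBTB16 ILMN_2402817 (-0.268 with median scaling, -0.0447 in the deposited matrix) and SGK1 ILMN_3229324 (0.0217 without background correction). The causes were not tested. Signal over background limits NR3C1, PER1 and PDK4, which were undetected on the LNCaP shRNA arrays.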
